A study of Mus musculus with 9 samples.

Results

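The genes described here belong to the bone morphogenetic protein (BMP) pathway, together with the Id genes that BMP signals are known to induce. Members were chosen by exact symbol: the ligands Bmp4 and Bmp7, the receptors Bmpr1a, Bmpr1b and Bmpr2, the inhibitory Smad6, and Id1, Id2, Id3 and Id4. They are 10 of the 38197 symbols in the deposited tables, and all 10 passed the filter on low counts that left 14742 genes to test. Wild-type mouse embryonic stem cells of strain 129 were differentiated as a monolayer toward ventral hindbrain. Retinoic acid (RA) and SAG, which activates the Hedgehog transducer Smoothened, were present from 0 to 3 days in differentiation conditions (DDC) by the deposited labels. The paper's methods place the change to medium without RA and SAG somewhat later. Neural progenitors were isolated with magnetic beads through the surface protein Prominin-1 at 4.5DDC, 5.5DDC or 6.5DDC, and polyA-selected RNA from 3 libraries per time was sequenced as single reads. A label field gives the times as 4, 5 and 6 days. The times 4.5, 5.5 and 6.5 of the sample titles were used. Genes were counted to totals of 17820600, 11244489 and 14390493 in replicates 1, 2 and 3 of 4.5DDC, 25506192, 11573528 and 11066572 at 5.5DDC, and 12851795, 16479971 and 15913820 at 6.5DDC. The methods count biological replicates in figure legends, but no label says that these libraries came from separate cultures, so p-values measure the spread between them, which may be technical.

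BMPs are secreted dimers that bring type I and type II receptor kinases together. The type I receptor then phosphorylates Smad1, Smad5 and Smad9, which enter the nucleus with Smad4, and among the genes they induce are the Id genes and the pathway's own inhibitor Smad6. Id proteins hold a helix-loop-helix without a DNA-binding region, so they pair with E proteins and keep these, and the proneural factors that need them, off DNA. In the neural tube BMPs come from the roof plate and dorsal ectoderm and pattern dorsal progenitors, opposite to the Sonic hedgehog source in the floor plate.

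The labelled cell type was checked against 10 progenitor markers, all of which were detected. Prom1, which encodes the sorted protein, lay between 62.8 and 207 FPKM (fragments scaled to transcript length and mapped reads), and Sox2, a transcription factor of neural progenitors, between 78.2 and 96.0. Of 7 pluripotency markers only 2 passed the filter. The summed level of all 7 lay between 2.44 and 6.49 FPKM, with Klf4 the most abundant. Neuron markers were present as well. Their summed level was 227, 550 and 382 FPKM in replicates 1, 2 and 3 of 4.5DDC, 198, 646 and 670 at 5.5DDC, and 363, 805 and 820 at 6.5DDC, Stmn2 being the most abundant.

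Replicate 1 stood apart at each time. Its neuron marker sum was the lowest of the 3 libraries at 4.5DDC, 5.5DDC and 6.5DDC. Across genes, deviations from the group means gave correlations between −0.653 and −0.123 for pairs of a replicate 1 library with a differently numbered library of another time. Pairs of differently numbered libraries among replicates 2 and 3 gave 0.225 to 0.487. The deviations of the 3 libraries of a time cancel for each gene, so the signs of these ranges are in part built in. These correlations are across genes, which are not independent replicates. Changes are therefore also given within replicate 1 and within replicates 2 and 3.

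On all 9 libraries without a block, none of the 10 members passed the quasi-likelihood test of edgeR at 0.05 in any comparison. Its p-values were adjusted by Benjamini-Hochberg over all tested genes. From 4.5DDC to 5.5DDC the count was 0 of 10, while 11 of all 14742 genes were called (0.0746%). An unadjusted p under 0.05 was reached by 1 member, Bmp7, and by 15.4% of all genes. DESeq2 called 1 member there, Bmp7, and 3.8% of the 13018 genes to which it gave an adjusted p. Later DESeq2 shares are likewise of genes with an adjusted p, so they differ in base from those of edgeR. With the replicate number as a block the count remained 0 of 10, with 1.44% of all genes called. From 5.5DDC to 6.5DDC it was again 0 of 10, against 33 genes in all (0.224%). Here 2 members, Id3 and Id4, had an unadjusted p under 0.05, as had 18.5% of all genes, and DESeq2 called 0 of 10 beside 4.77% of its genes. The replicate block gave 0 of 10 beside 1.32%. Across the span (4.5DDC to 6.5DDC) 0 of 10 were called, where 2763 genes were (18.7%; 9.21% higher and 9.53% lower). In this comparison 4 members (Bmpr2, Id1, Id3 and Id4) had an unadjusted p under 0.05, beside 35.4% of all genes. DESeq2 called the same 4 genes, and 24.9% of the 14732 to which it gave an adjusted p. The replicate block called 1 member, Id4, and 3418 genes in all. Same-numbered libraries of 4.5DDC and 6.5DDC deviated together in replicate 1 only (r across genes 0.383, −0.0396 and −0.215). The numbers were therefore not taken as pairing these times. The limma fits, on voom weights and on log2 FPKM values, called 0 of 10 in each interval and over the span. Of all genes they called 2608 (voom), 2462 and 2469 (log2 FPKM plus 1 and 0.1) over the span, but 10, 7 and 8 in the first interval and 21, 12 and 0 in the second.

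A test of any difference among the 3 times called 0 of 10 members and 9.63% of all genes. Here 5 members (Bmp7, Bmpr2, Id1, Id3 and Id4) reached an unadjusted p under 0.05, as did 28.8% of all genes, while DESeq2 called 2 (Bmp7 and Id4) beside 20.2%. Without a block the lowest adjusted p values among the members by edgeR were 0.0891 for Bmp7 and 0.108 for Id4. With the replicate block edgeR called 1 member, Id4 (adjusted p 0.0189), and 2180 genes in all. This test includes the span, which the numbers were not taken as pairing. Whether the second interval differed from the first was tested directly: edgeR called 0 members and 0% of all genes, and so did DESeq2 for the members. At an unadjusted p under 0.05 this comparison held 1 member, Bmp7, and 4.76% of all genes.

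Levels of the 10 genes spanned a wide range. At 4.5DDC the order of mean FPKM (± SD, n = 3) was Id3 (64.4 ± 25.8), Bmpr1a (52.1 ± 5.29), Id2 (33.3 ± 17.4), Bmp7 (11.6 ± 2.49), Bmpr2 (10.5 ± 1.30), Id1 (10.4 ± 5.86), Bmpr1b (7.37 ± 2.89), Id4 (6.69 ± 2.15), Bmp4 (2.33 ± 1.42) and Smad6 (0.610 ± 0.185). Only 2 neighbouring pairs had libraries that did not overlap, Id2 above Bmp7 and Id4 above Bmp4. At 6.5DDC the order was Bmpr1a (56.1 ± 8.02), Id3 (29.7 ± 10.9), Id2 (22.7 ± 1.84), Bmpr2 (15.1 ± 2.50), Bmp7 (15.1 ± 3.01), Id4 (13.6 ± 5.32), Bmpr1b (9.61 ± 6.91), Id1 (3.83 ± 1.48), Bmp4 (1.85 ± 1.28) and Smad6 (0.415 ± 0.0952). Neighbours without overlap were then Bmpr1a above Id3, Id2 above Bmpr2, and Bmpr1b above Id1. At 5.5DDC Id3 (67.1 ± 40.0), Bmpr1a (51.1 ± 1.87), Id2 (22.6 ± 4.85), Bmp7 (18.8 ± 2.03) and Bmpr2 (12.7 ± 1.02) led, followed by Bmpr1b (8.27 ± 3.23), Id4 (7.41 ± 1.40), Id1 (6.09 ± 2.72), Bmp4 (1.42 ± 0.425) and Smad6 (0.544 ± 0.159). Bmpr1a and Id2, Bmp7 and Bmpr2, Id1 and Bmp4, and Bmp4 and Smad6 did not overlap at that time. Id3 thus had the highest mean of the 10 at 4.5DDC and 5.5DDC, overlapping Bmpr1a, and lay wholly below Bmpr1a at 6.5DDC.

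**Figure D1:**
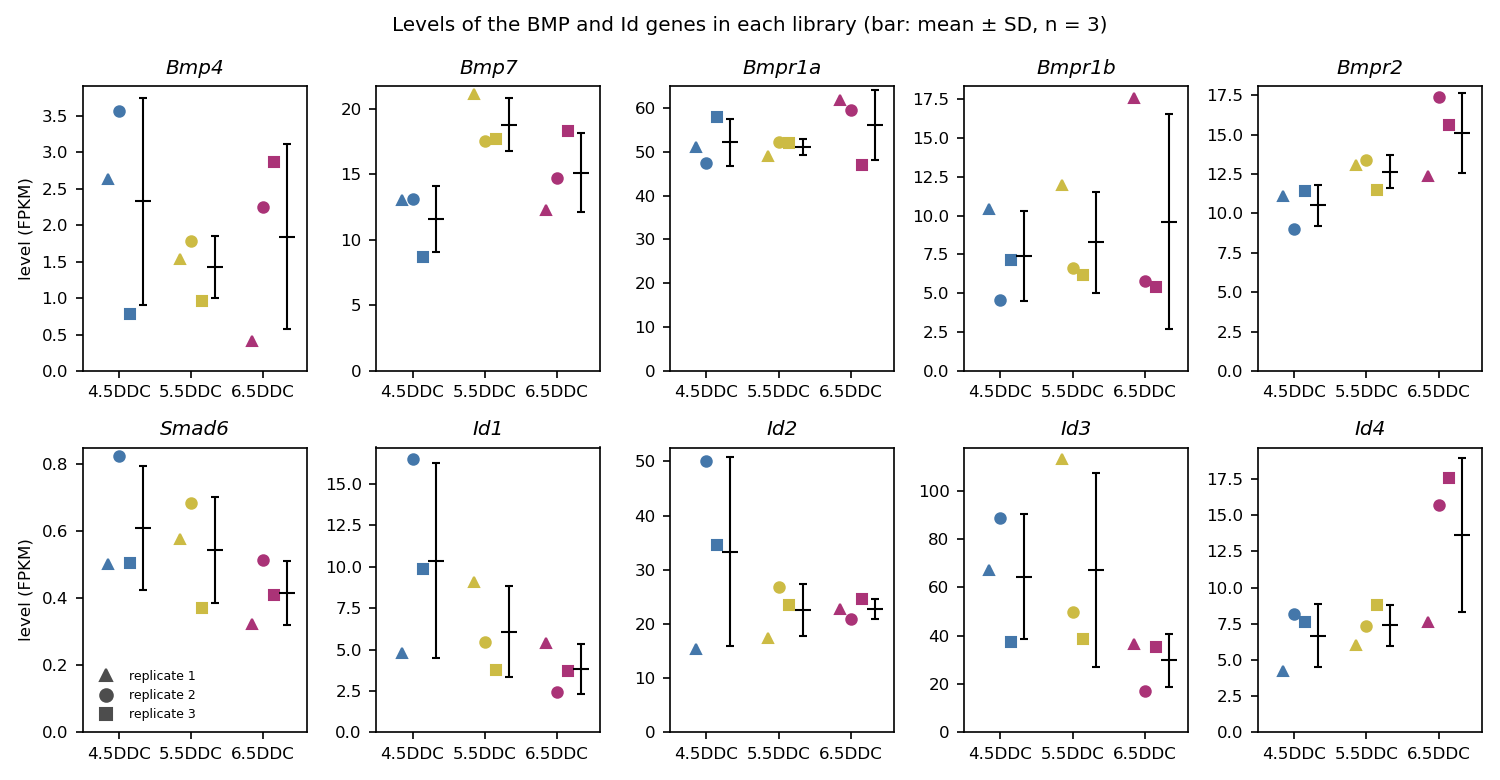
Level in FPKM (vertical axes, from 0) of each BMP and Id gene in the 9 libraries by time point, with symbols for the replicate number and bars for the mean ± SD of 3 libraries. Id4 was at 15.7 and 17.6 FPKM in replicates 2 and 3 of 6.5DDC and at 7.60 in replicate 1, and Bmpr1b was highest in replicate 1 at each time.

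Among the ligands, Bmp7 was the more abundant. Bmp7 stood at 13.0, 13.1 and 8.70 FPKM in replicates 1, 2 and 3 of 4.5DDC, at 21.1, 17.5 and 17.7 at 5.5DDC, and at 12.3, 14.7 and 18.3 at 6.5DDC. The 3 libraries of 5.5DDC lay above all 3 of 4.5DDC, whereas those of 6.5DDC overlapped both earlier times. Between 4.5DDC and 5.5DDC the log2 fold change was 0.66 (SE 0.181), with an adjusted p of 0.174 by edgeR, and was 0.68 within replicate 1 and 0.65 within replicates 2 and 3. DESeq2 gave an adjusted p of 0.0419 for this change, the lowest among 21 alternatives that reached up to 0.456. From 5.5DDC to 6.5DDC the fold change of Bmp7 was −0.29 (SE 0.180, adjusted p 0.400), and it was −0.71 within replicate 1 and −0.09 within the others. The second interval minus the first came to −0.95 (SE 0.307), with an unadjusted p of 0.0115 and an adjusted p of 0.760. Its position in GRCm38 is chr2:172868012-172940321 (minus strand).

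Bmp4, a ligand of the roof plate and dorsal ectoderm, was near the low end. Its FPKM was 2.63, 3.57 and 0.781 at 4.5DDC, 1.53, 1.79 and 0.957 at 5.5DDC, and 0.416, 2.25 and 2.87 at 6.5DDC, in the order of replicates 1, 2 and 3. Libraries of all 3 times overlapped, with replicate 3 lowest at 4.5DDC and replicate 1 lowest at 6.5DDC. These levels rested on few reads, from 10 in replicate 1 of 6.5DDC to 93 in replicate 3 of that time. For the span the log2 fold change was 0.016 (SE 0.633, adjusted p 0.988), which pooled −2.41 within replicate 1 and 0.65 within replicates 2 and 3. The intervals gave −0.52 (adjusted p 0.755) and 0.53 (adjusted p 0.674). Bmp4 occupies chr14:46383520-46390669 (minus strand), and Gm15217 on the opposite strand covers 3.96% of its exonic bases.

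Bmpr1a, the type I receptor also called ALK3, was the most abundant receptor. Its level was 51.0, 47.5 and 57.9 FPKM at 4.5DDC, 49.0, 52.3 and 52.1 at 5.5DDC, and 61.9, 59.5 and 47.0 at 6.5DDC. All 9 libraries lay between 47.0 and 61.9, and the times overlapped. Bmpr1a had a log2 fold change of 0.10 over the span (SE 0.147, adjusted p 0.658), and came to 0.25 within replicate 1 and 0.023 within replicates 2 and 3. Bmpr1a maps to chr14:34410734-34503341 (minus strand), where the antisense gene Gm17110 covers 4.57% of the exonic bases.

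Bmpr1b, the other type I receptor (ALK6), differed more between replicate numbers than between times. It stood at 10.4, 4.59 and 7.16 FPKM at 4.5DDC, at 12.0, 6.65 and 6.16 at 5.5DDC, and at 17.6, 5.82 and 5.42 at 6.5DDC. Replicate 1 was the highest library at each time, and the times overlapped. Over the span the log2 fold change was 0.37 (SE 0.454, adjusted p 0.590), and came to 0.79 within replicate 1 and −0.07 within replicates 2 and 3. Without replicate 1 of 6.5DDC it was −0.34. Corin, a floor plate protease, was likewise highest in replicate 1, with 66.4, 11.3 and 14.2 FPKM at 4.5DDC, 133, 38.9 and 44.5 at 5.5DDC, and 194, 40.7 and 54.5 at 6.5DDC. The floor plate markers Foxa2, Shh, Spon1 and Ntn1 were highest in replicate 1 at 4.5DDC and 5.5DDC, but not at 6.5DDC. There Foxa2 (64.1, 77.4 and 81.2 in replicates 1, 2 and 3) and Shh (222, 286 and 263) were lowest in replicate 1. Spon1 (491, 472 and 540) and Ntn1 (419, 382 and 455) lay between the others. Whether the differences of Bmpr1b and Corin share a source was not tested. Bmpr1b spans chr3:141837136-142169425 (minus strand).

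Bmpr2 is the type II receptor that phosphorylates the type I partner. Values were 11.1, 9.03 and 11.4 FPKM at 4.5DDC, 13.1, 13.4 and 11.5 at 5.5DDC, and 12.4, 17.4 and 15.6 at 6.5DDC. Both later times lay above all libraries of 4.5DDC, by a margin as small as 11.5 against 11.4 FPKM, and they overlapped each other. In CPM replicate 3 of 5.5DDC (51.4) lay below replicate 3 of 4.5DDC (54.4), so that Bmpr2 at 5.5DDC was apart from 4.5DDC in FPKM only. Between 4.5DDC and 6.5DDC Bmpr2 had a log2 fold change of 0.50 (SE 0.166), with an adjusted p of 0.0624 by edgeR, so Bmpr2 was not called. It was 0.20 within replicate 1 and 0.63 within replicates 2 and 3. Leaving out replicate 1 of 6.5DDC brought the adjusted p to 0.0347, DESeq2 gave 0.0354, and the 21 alternatives ran from 0.0347 to 0.220. The intervals gave 0.22 (adjusted p 0.568) and 0.28 (adjusted p 0.383). Bmpr2 lies at chr1:59763400-59879014 (plus strand).

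**Figure D2:**
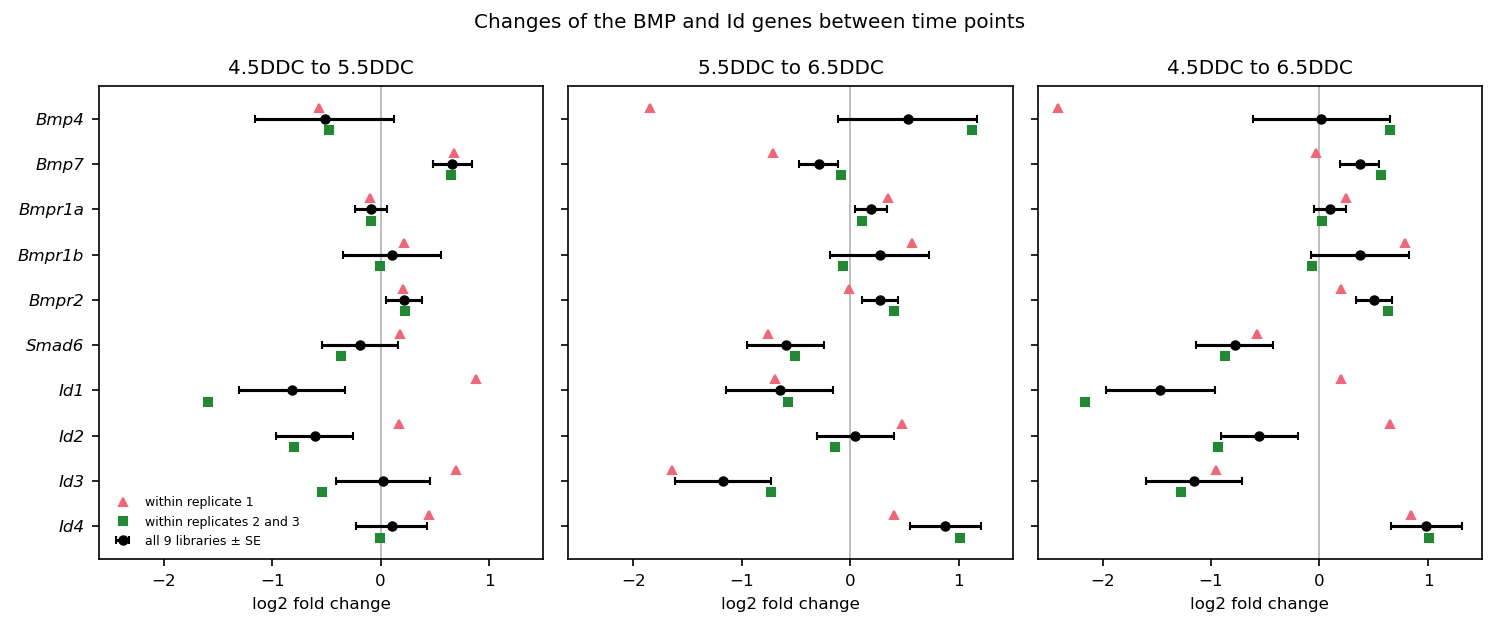
Log2 fold change (horizontal axes) of each BMP and Id gene in 3 comparisons, as the estimate over 9 libraries ± SE (circles), within replicate 1 (triangles) and within replicates 2 and 3 (squares). For Id1 over the span the within-replicate values lay on either side of 0, at 0.19 and −2.16, while for Id4 both were positive, at 0.85 and 1.01.

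Counted by overlap of FPKM, 2 of 10 members (Bmp7 and Bmpr2) lay wholly higher at 5.5DDC than at 4.5DDC, beside 12.1% of all genes, and 0 lay wholly lower, beside 11.7%. From 5.5DDC to 6.5DDC 0 members lay wholly higher, beside 10.1% of all genes, and 1 (Id3) lay wholly lower, beside 13.9%. Over the span 1 member was wholly higher (Bmpr2; 17.9% of all genes) and 1 wholly lower (Id3; 16.7%). These counts of members are near the shares of all genes.

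Smad6, an inhibitory Smad that binds type I receptors and is itself induced by BMP, was the least abundant member. Its FPKM was 0.502, 0.824 and 0.506 at 4.5DDC, 0.575, 0.684 and 0.371 at 5.5DDC, and 0.323, 0.513 and 0.410 at 6.5DDC. The lowest library belonged to 6.5DDC, yet replicate 2 of 6.5DDC (0.513) overlapped the 4.5DDC libraries. In CPM (counts scaled to library totals and TMM factors) Smad6 stood at 1.83, 2.99 and 1.97 at 4.5DDC and at 1.23, 1.22 and 1.46 at 6.5DDC, without overlap. Reads per library numbered 15 to 54, so the depth was small. For Smad6 the log2 fold change over the span was −0.78 (SE 0.354, adjusted p 0.145 by edgeR), and came to −0.57 within replicate 1 and −0.87 within replicates 2 and 3. On log2 FPKM the span gave −0.18 with 1 added and −0.45 with 0.1 added. The intervals gave −0.19 (SE 0.346, adjusted p 0.838), positive where replicate 2 of 4.5DDC (0.049) or replicate 3 of 5.5DDC (0.0087) was left out, and −0.59 (SE 0.354, adjusted p 0.386). Its gene lies at chr9:63953076-64022059 (minus strand).

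Id1, an early target of BMP receptors in many cells, was read at low levels. It stood at 4.77, 16.5 and 9.86 FPKM at 4.5DDC, at 9.08, 5.45 and 3.75 at 5.5DDC, and at 5.38, 2.42 and 3.69 at 6.5DDC. Replicates 2 and 3 of 4.5DDC were the highest of the 9 libraries, whereas replicate 1 of that time lay among the later ones, so the times overlapped. Between 4.5DDC and 6.5DDC Id1 gave a log2 fold change of −1.47 (SE 0.50), with an adjusted p of 0.0676 by edgeR. Within replicate 1 it was 0.19, and within replicates 2 and 3 −2.16. Without replicate 1 of 4.5DDC the adjusted p was 0.0285, without replicate 1 of 5.5DDC 0.0499, and with DESeq2 0.0218, in a range of 0.00312 to 0.241 over 21 alternatives. Its highest value came without replicate 2 of 4.5DDC. The first interval gave −0.82 (SE 0.488, adjusted p 0.460), and came to 0.88 within replicate 1 and −1.59 within the others. With replicates 2 and 3 only, chosen after seeing the data, Id1 was called in this interval (adjusted p 0.0481, in a range up to 0.785). The second interval gave −0.65 (SE 0.497, adjusted p 0.496). Id1 lies at chr2:152736251-152737410 (plus strand).

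Levels of Id2 were 15.3, 50.1 and 34.6 FPKM at 4.5DDC, 17.4, 26.9 and 23.5 at 5.5DDC, and 22.8, 20.9 and 24.6 at 6.5DDC. As for Id1, replicates 2 and 3 of 4.5DDC were the highest libraries. Unlike for Id1, replicate 1 of 4.5DDC was the lowest, while all 3 libraries of 6.5DDC lay within a narrow band. Over the span Id2 had a log2 fold change of −0.56 (SE 0.354, adjusted p 0.288), made of 0.65 within replicate 1 and −0.94 within replicates 2 and 3. Id2 passed the threshold only where replicate 1 was left out, at 0.0268 without that library of 4.5DDC and 0.00875 with replicates 2 and 3 alone (an alternative chosen after seeing the data), in a range up to 0.774. From 4.5DDC to 5.5DDC the change was −0.61 (adjusted p 0.449) and from 5.5DDC to 6.5DDC 0.05 (adjusted p 0.954). Id2 maps to chr12:25093799-25097140 (minus strand).

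Id3 was the most abundant Id gene. It was read at 67.1, 88.8 and 37.3 FPKM at 4.5DDC, 113, 49.9 and 38.6 at 5.5DDC, and 36.5, 17.2 and 35.5 at 6.5DDC. All libraries of 6.5DDC lay below those of both earlier times, narrowly so against replicate 3 of 4.5DDC (37.3). Over the span Id3 gave a log2 fold change of −1.16 (SE 0.442) with an adjusted p of 0.0948 by edgeR, and it was −0.95 within replicate 1 and −1.28 within replicates 2 and 3. Leaving out replicate 1 of 5.5DDC, the highest library, brought the adjusted p to 0.0369, DESeq2 gave 0.0348, and alternatives ran from 0.0315 to 0.280. From 5.5DDC to 6.5DDC the change was −1.17 (SE 0.442, adjusted p 0.220), and came to −1.65 within replicate 1 and −0.73 within the others. From 4.5DDC to 5.5DDC it was 0.019 (SE 0.434, adjusted p 0.989), pooled from 0.69 within replicate 1 and −0.54 within replicates 2 and 3. Id3 is found at chr4:136143497-136145755 (plus strand).

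Id4, known from neural progenitors and glia, was the Id gene with a positive value over the span. FPKM stood at 4.23, 8.20 and 7.65 at 4.5DDC, 6.03, 7.35 and 8.83 at 5.5DDC, and 7.60, 15.7 and 17.6 at 6.5DDC. Replicates 2 and 3 of 6.5DDC were the highest of the 9 libraries, and replicate 1 of 6.5DDC overlapped the earlier times. Within each replicate number 6.5DDC was above 4.5DDC. The log2 fold change over the span was 0.98 (SE 0.328) with an adjusted p of 0.0629 by edgeR, and was 0.85 within replicate 1 and 1.01 within replicates 2 and 3. Without replicate 1 of 6.5DDC the adjusted p was 0.0166, without a filter on low counts 0.0485, and with DESeq2 0.0198. The replicate block gave 0.00945, in a range of 0.00353 to 0.183 over 21 alternatives, whose upper end came without replicate 2 of 6.5DDC. Most of the difference fell in the second interval (0.88, SE 0.327, adjusted p 0.216) and little in the first (0.10, SE 0.328, adjusted p 0.913), but the test of one interval against the other gave 0.78 (SE 0.574, adjusted p 0.763). In the second interval Id4 was called with a block for replicate 1 or with replicates 2 and 3 alone, both chosen after seeing the data, at 0.0372 and 0.0258, in a range up to 0.568. Id4 lies at chr13:48261228-48266026 (plus strand), where Gm49291 covers 4.44% and A330033J07Rik 2.13% of the exonic bases, both from the opposite strand. The strand setting of the counting is not given in the sources used here, so within these short overlaps reads of Id4, Bmp4 and Bmpr1a cannot be told from those of the other gene.

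Summed over the 4 Id genes, levels were 91.4, 163 and 89.4 FPKM at 4.5DDC, 145, 89.6 and 74.7 at 5.5DDC, and 72.3, 56.2 and 81.3 at 6.5DDC. The mean was 115 ± 42.2 FPKM at 4.5DDC and 69.9 ± 12.7 at 6.5DDC (SD, n = 3), and the sums of replicates 1 and 2 of 6.5DDC lay below every earlier library. Fewer cells of a type and less RNA per cell cannot be told apart in such bulk samples. Replicate 1 did not stand apart in these sums at 4.5DDC and 6.5DDC, and the part of the cell mixture in the Id levels was not tested.

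**Figure D3:**
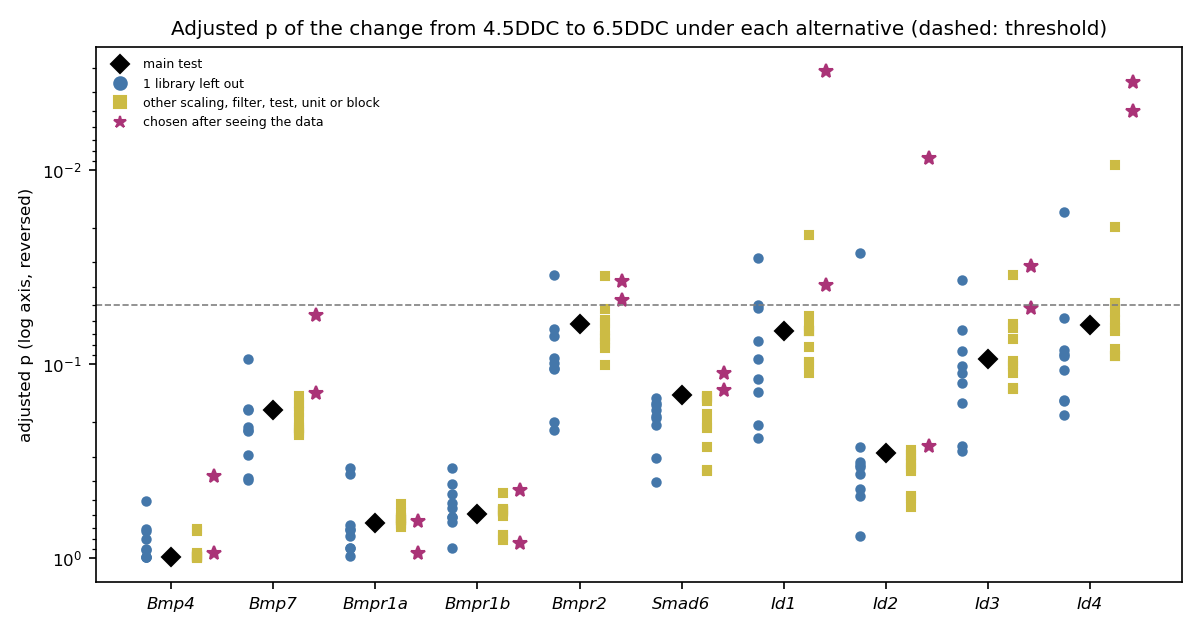
Adjusted p (vertical axis, log scale, reversed) of the change from 4.5DDC to 6.5DDC for each BMP and Id gene under edgeR (diamonds), with 1 library left out (circles), under other scalings, filters, tests, units or a block (squares) and under those chosen after seeing the data (stars). Bmpr2, Id1, Id3 and Id4 lay near the dashed threshold of 0.05, all on its uncalled side under edgeR.

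Start regions are shown for Smad6, Id2, Id3 and Id4, textbook direct targets of BMP Smads among the members. RefSeq promoters of 300 bases (250 before and 50 after the start RefSeq gives, build GRCm38.p6) had an entry for 8 of 10 members, the missing ones being Id1 and Bmp7. The motifs searched on both strands were GTCTAGAC, the palindrome that Smads bind, GGCGCC and GGAGCC, GC-rich boxes bound by BMP Smads, and CAGAC, a box bound by Smad4. None of these motifs lies within another. Of 32851 promoters of the same length, 0.213% held GTCTAGAC, 11.9% GGCGCC, 30.8% GGAGCC and 49.6% CAGAC. The sequences run 5′ to 3′ on the gene's strand, and capitals mark the motifs in either orientation. The Smad6 window (chr9:64022010-64022309, minus strand) held 1 GTCTAGAC and 2 GGAGCC. That of Id2 (chr12:25096043-25096342, minus strand) held 1 GGCGCC and 1 GGAGCC, that of Id3 (chr4:136143572-136143871, plus strand) 1 GGAGCC and 2 CAGAC, and that of Id4 (chr13:48260866-48261165, plus strand) 1 GGCGCC and 1 GGAGCC. A match describes these letters and is no measured binding site.
Smad6: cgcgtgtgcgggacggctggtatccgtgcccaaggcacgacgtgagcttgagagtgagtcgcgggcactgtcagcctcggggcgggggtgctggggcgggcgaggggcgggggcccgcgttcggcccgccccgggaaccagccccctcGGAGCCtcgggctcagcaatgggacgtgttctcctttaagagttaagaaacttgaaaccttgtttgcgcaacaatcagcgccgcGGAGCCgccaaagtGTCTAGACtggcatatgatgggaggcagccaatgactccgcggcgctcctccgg
Id2: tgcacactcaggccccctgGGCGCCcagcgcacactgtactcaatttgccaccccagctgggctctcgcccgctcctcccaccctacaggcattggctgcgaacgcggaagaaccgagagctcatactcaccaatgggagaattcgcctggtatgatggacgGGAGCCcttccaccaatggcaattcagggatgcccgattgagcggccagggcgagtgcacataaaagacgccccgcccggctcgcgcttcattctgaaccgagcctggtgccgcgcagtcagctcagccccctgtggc
Id3: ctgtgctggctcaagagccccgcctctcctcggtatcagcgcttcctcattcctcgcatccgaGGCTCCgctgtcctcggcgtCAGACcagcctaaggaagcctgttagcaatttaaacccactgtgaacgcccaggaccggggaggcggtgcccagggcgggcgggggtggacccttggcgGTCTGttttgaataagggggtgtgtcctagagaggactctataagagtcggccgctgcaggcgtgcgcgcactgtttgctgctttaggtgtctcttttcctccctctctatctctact
Id4: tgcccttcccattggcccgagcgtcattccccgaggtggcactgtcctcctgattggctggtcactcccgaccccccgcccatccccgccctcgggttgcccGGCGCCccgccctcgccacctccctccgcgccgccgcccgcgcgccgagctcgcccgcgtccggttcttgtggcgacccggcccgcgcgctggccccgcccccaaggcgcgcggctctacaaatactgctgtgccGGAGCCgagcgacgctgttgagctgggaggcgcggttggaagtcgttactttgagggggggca
Of the others, Bmp4 held 1 GGAGCC, and Bmpr1a and Bmpr2 held 1 GGCGCC each. Bmpr1b had 3 entries, which held GGAGCC or CAGAC and neither of the other motifs.

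The genes most like each member were taken as those with the smallest mean absolute difference of centred log2(FPKM + 1) over the 9 libraries, among 11995 to 11996 tested genes averaging 2 FPKM or more. Nearest to Bmp7 were G0s2 (0.0744), Stoml1 (0.0785) and Wwox (0.0795), and nearest to Bmp4 were Sez6l (0.253), Zscan2 (0.259) and Spry1 (0.262). Among receptors, Bmpr1a was closest to Rhot1 (0.0315), Zfp91 (0.0381) and Ppp1r15b (0.0468). Bmpr1b came closest to Ptprk (0.127), Ppp2r2b (0.132) and Fras1 (0.147). Bmpr2 had Lcor (0.0443), Senp7 (0.0531) and Mttp (0.0547). The measure depends on how much a member varies, over a range of 1.69 for Bmp4 and 0.392 for Bmpr1a. Smad6 was matched by Wrnip1 (0.0483), Cdc26 (0.0545) and Rpl10 (0.0607). For Id1 the nearest were Gm14706 (0.256), Gm7117 (0.262) and Ifrd2 (0.263), and for Id2 Zfp668 (0.103), Peg12 (0.167) and Car14 (0.171). Id3 had Romo1 (0.136), Rpl41 (0.138) and Gm10076 (0.153), and Id4 had Atp6v1g2 (0.147), Ptchd2 (0.153) and Mid2 (0.155). Among the members themselves Id3 and Id4 differed most (0.952). Adding 1 to FPKM flattens Smad6, which lay under 1 FPKM in every library.

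The rest of the pathway was read from lists of known components over the span, where the median log2 fold change of all 14742 genes was 0.0040 and 7406 were positive. Of all genes 9.21% were called higher over the span and 9.53% lower, shares that stand beside each list count below. The 10 members had a median of 0.058, with 6 positive. Among the intervals their medians were −0.037 and 0.12 (5 and 6 positive), beside 0.0094 and 0.019 for all genes (7513 and 7645 positive). In the intervals edgeR called 0 genes of any list without a block. Calls with the replicate block rest on numbers that the data tell apart for replicate 1 only. With the replicate block Gata2 (adjusted p 0.0366, against 0.136 without it), Olig2 (0.0482, lower; 0.423), Syt1 (0.0146; 0.127), Slc1a3 (0.0283; 0.136), Sox9 (0.0489; 0.392), Col3a1 (0.0407; 0.576), Spon1 (0.0221; 0.127) and Corin (0.0183; 0.552) were called from 4.5DDC to 5.5DDC, besides the antagonists Nbl1 and Crim1. From 5.5DDC to 6.5DDC it called Gata3 (0.0435; 0.226), Dcx (0.0240; 0.433), Syt1 (0.0225; 0.110), Slc1a3 (0.0264; 0.0829), Nfib (0.0484; 0.155) and Col3a1 (0.0429; 0.507), all higher.

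With replicates 2 and 3 only, chosen after seeing the data, some lists held a higher call against 0 in the counts below. The ligands, chordin proteases, Smads, Smad regulators and dorsal neural tube genes each had 1 gene called higher. Of 14 ligands, 7 passed the filter and 0 were called, with 0 at an unadjusted p under 0.05 and 0 by DESeq2 or limma. Their median was 0.37, 6 were positive and Bmp7 was the most abundant. Bmp10 and Gdf2 were at 0 in all 9 libraries. Of 7 BMP receptors 6 were tested, with a median of 0.24 and 4 positive. Acvr2a, a type II receptor shared with activins, rose, and was the 1 receptor called. It was read at 12.3, 11.8 and 14.7 FPKM at 4.5DDC and at 17.8, 23.1 and 20.9 at 6.5DDC, without overlap. The log2 fold change of Acvr2a was 0.51 (SE 0.157, adjusted p 0.0491 by edgeR). This call was lost without replicate 1 (0.119), 2 (0.156) or 3 (0.0574) of 4.5DDC, without replicate 2 (0.0727) or 3 (0.0805) of 5.5DDC, and without replicate 2 (0.182) or 3 (0.0866) of 6.5DDC. It was also lost without a filter on low counts (0.0528), with voom (0.0554) and with only the 6 libraries compared (0.0656), the range over 21 alternatives being 0.0173 to 0.182. Of 7 co-receptors 5 were tested and 0 called, with 1 lower at an unadjusted p under 0.05, 1 lower by DESeq2 and 0 by limma, a median of 0.10 and 3 positive. Rgma was the most abundant of them.

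Secreted antagonists bind BMPs outside the cell. Of 18 genes 12 were tested, 2 were higher and 0 lower, beside 9.21% and 9.53% of all genes, the median was 0.55 and 10 were positive. Nbl1, which encodes the antagonist DAN, was at 2.19, 2.11 and 0.978 FPKM at 4.5DDC, 7.91, 4.71 and 4.91 at 5.5DDC, and 9.02, 10.4 and 13.7 at 6.5DDC, and no library of 4.5DDC reached those of the later times. Nbl1 rose with a log2 fold change of 2.62 (SE 0.333, adjusted p 0.00174 by edgeR), and came to 2.06 within replicate 1 and 2.94 within replicates 2 and 3. Crim1, a membrane-anchored protein that binds BMPs, was at 27.7, 19.0 and 18.2 FPKM at 4.5DDC, 58.5, 35.5 and 35.9 at 5.5DDC, and 51.7, 53.6 and 50.5 at 6.5DDC, again without overlap between 4.5DDC and the later times. Crim1 rose by 1.26 on the log2 scale (SE 0.225, adjusted p 0.00634), and came to 0.96 within replicate 1 and 1.44 within the others. Both kept their call in all 21 alternatives, the highest adjusted p being 0.0101 for Nbl1 and 0.0328 for Crim1. From 4.5DDC to 5.5DDC neither was called by edgeR (0.127 for Nbl1 and 0.152 for Crim1), but the replicate block called both (0.0436 and 0.0317). Each was called there in 4 of 21 alternatives, in ranges from 0.000392 to 0.38 for Nbl1 and from 0.00856 to 0.431 for Crim1. Fstl1 was the most abundant gene of the list. All 3 proteases that cleave chordin were tested and 0 called, with 1 at an unadjusted p under 0.05, 1 by DESeq2 and 0 by limma. The replicate block called 1 higher. The median of the proteases was 0.57, all 3 were positive, and Bmp1 was the most abundant.

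Of 6 Smads 5 were tested and 0 called, with 1 at an unadjusted p under 0.05 and 0 by DESeq2 or limma, a median of −0.15 and 2 positive. Smad4 was the most abundant, and Smad9 did not pass the filter. Of 9 regulators of Smads, all tested, 1 was lower and 0 higher, with a median of 0.07, 6 positive and Usp9x most abundant. Zfp423, a zinc finger partner of BMP Smads, was at 27.3, 26.3 and 17.5 FPKM at 4.5DDC and at 8.67, 6.70 and 18.1 at 6.5DDC, where replicate 3 overlapped 4.5DDC. Zfp423 fell, with a log2 fold change of −1.02 (SE 0.262, adjusted p 0.0257), but was no longer called without replicate 1 (0.0626) or 2 (0.0917) of 4.5DDC and without replicate 1 (0.0550) or 2 (0.0971) of 6.5DDC. Nor was Zfp423 called on log2 FPKM (0.0581 and 0.0571) or with replicates 2 and 3 only (0.0611, chosen after seeing the data), in a range from 0.00307 to 0.0971. The 4 Id genes had 0 calls, 1 positive value and a median of −0.86. DESeq2 called 1 of them higher and 2 lower, beside 24.9% of the genes to which it gave an adjusted p. Of 14 other targets, 12 were tested, 2 were higher and 0 lower, with a median of 0.33, 7 positive and Hey1 most abundant. At an unadjusted p under 0.05 and by DESeq2 3 were higher and 1 lower, and with replicates 2 and 3 only, chosen after seeing the data, 4 and 1. The 2 called were Gata2 and Gata3, which are BMP targets in other tissues and also determinants of serotonergic and other hindbrain neurons. Gata2 rose by 1.83 (SE 0.326, adjusted p 0.00634), a call kept in all 21 alternatives. Gata3 rose by 2.46 (SE 0.578, adjusted p 0.0189), a call lost without replicate 3 of 4.5DDC (0.0557) or replicate 2 of 6.5DDC (0.0608), with 0.0608 the highest of a range that began at 0.000164. Smad6, Smad7 and other genes stand in more than 1 of these lists. Of 14 dorsal neural tube genes 4 were tested and 0 called, with 0 at an unadjusted p under 0.05 and 0 by DESeq2 or limma, and a median of 0.34, of which 3 were positive. Lmx1b was the most abundant, and Lmx1a, Gdf7, Pax3 and Pax7 did not pass the filter.

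**Figure D4:**
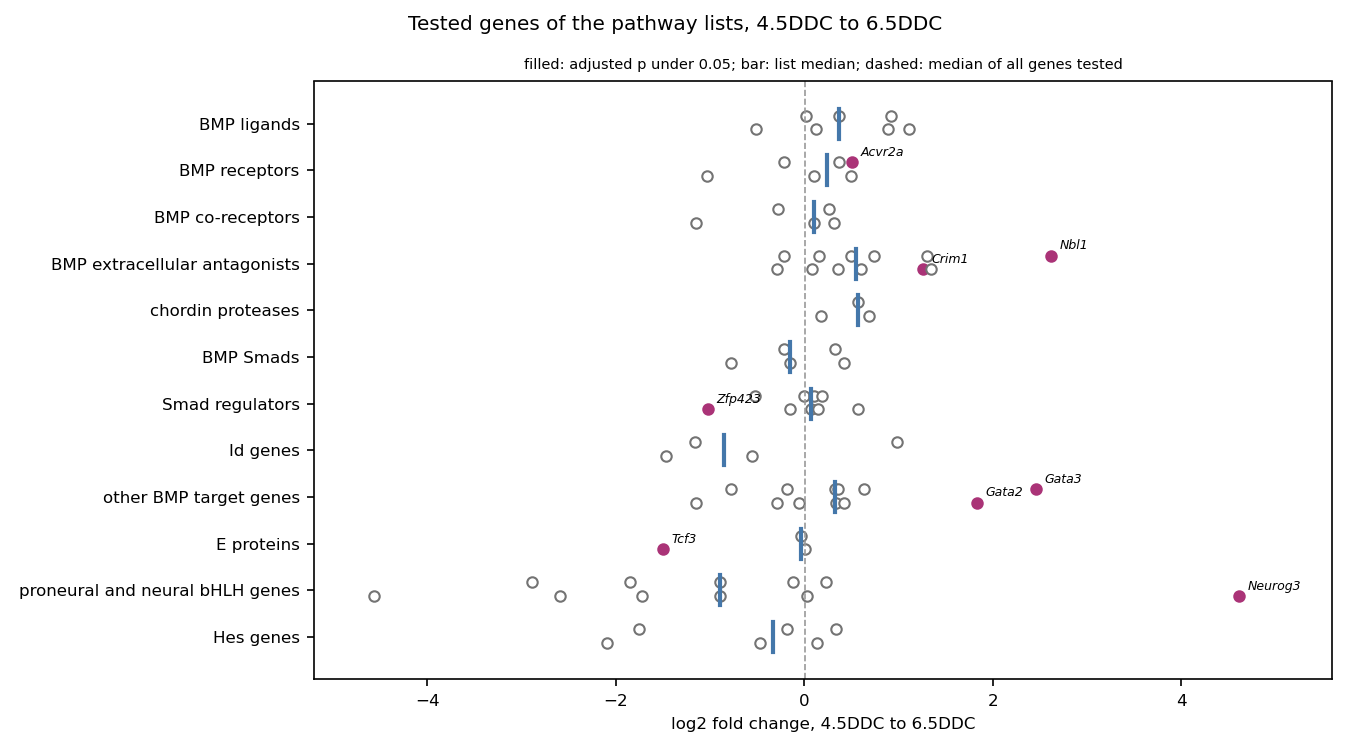
Log2 fold change from 4.5DDC to 6.5DDC (horizontal axis) of each tested gene in 12 lists of the BMP pathway and of Id partners, filled where edgeR's adjusted p was under 0.05, with the list median as a bar and the median of all genes tested as a dashed line. Nbl1 (2.62) and Crim1 (1.26) are filled among the antagonists, and no Id gene is filled.

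Id proteins act through E proteins, whose 3 genes were all tested. Tcf3, whose products E12 and E47 bind Id proteins, was lower and 0 were higher, with a median of −0.039, 1 positive and Tcf12 most abundant. It stood at 49.0, 72.1 and 26.7 FPKM at 4.5DDC, 54.9, 38.5 and 31.0 at 5.5DDC, and 16.3, 11.9 and 23.2 at 6.5DDC, where all libraries lay below both earlier times. Tcf3 fell, with a log2 fold change of −1.50 (SE 0.339, adjusted p 0.0164) and −1.52 within replicate 1 beside −1.49 within replicates 2 and 3. Tcf3 was no longer called without replicate 2 of 4.5DDC (0.0609) or replicate 2 of 6.5DDC (0.0688), in a range from 0.00023 to 0.0688. Of 15 proneural and neural bHLH genes 11 were tested, 1 was higher and 0 lower, with a median of −0.90, 3 positive and Neurod4 most abundant. At an unadjusted p under 0.05, 5 were lower, DESeq2 called 3 lower, and replicates 2 and 3 only, chosen after seeing the data, 6 lower. The replicate block called 1 higher and 6 lower. Neurog3 was the 1 that edgeR called without a block. It stood at 0.377, 1.05 and 0.504 FPKM at 4.5DDC and at 0.579, 15.7 and 32.1 at 6.5DDC. Replicate 1 of 6.5DDC thus stayed at the level of 4.5DDC. Its log2 fold change was 4.61 (SE 1.24, adjusted p 0.0305), and came to 0.55 within replicate 1 and 4.87 within replicates 2 and 3. Neurog3 was no longer called without replicate 1 (0.0824), 2 (0.0846) or 3 (0.0861) of 4.5DDC and without replicate 2 (0.0748) or 3 (0.0733) of 6.5DDC, and on log2 FPKM (0.11 and 0.113), the highest of the 21 alternatives being 0.219 with voom and the lowest 0.000392. Of 6 Hes and Hey genes, all tested, 0 were called, with 1 higher and 1 lower at an unadjusted p under 0.05, the same counts by DESeq2 and 0 by limma. The replicate block called 1 lower. The median of the 6 was −0.33, 2 were positive and Hey1 was the most abundant.

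Markers of other cell types moved over the same span, where 9.21% of all genes were called higher and 9.53% lower. The part of these markers' cells in the values of the BMP and Id genes was not tested. Of 11 neuron markers 10 were in the tables and tested, 2 were higher (Map2 and Syt1) and 0 lower, with a median of 1.03, and replicates 2 and 3 only, chosen after seeing the data, gave 5 higher. Syt1, a synaptic vesicle protein, rose by 3.19 (SE 0.359, adjusted p 0.00133) and Map2, a dendritic protein, by 1.65 (SE 0.309, adjusted p 0.00768), both in all 21 alternatives. Of 10 astrocyte and radial glia markers 8 were tested, 5 were higher (Aldh1l1, Slc1a3, Aqp4, Nfia and Nfib) and 0 lower, with a median of 1.63. DESeq2 called 6 of these markers higher, and 7 were higher at an unadjusted p under 0.05. The replicate block and replicates 2 and 3 only, chosen after seeing the data, called 7 each. The summed level of all 10 was 196, 478 and 545 FPKM at 4.5DDC, 322, 704 and 717 at 5.5DDC, and 752, 1010 and 849 at 6.5DDC, Fabp7 being the most abundant and also a progenitor marker. Gfap, the defining astrocyte gene, did not pass the filter. Of the 5 calls by edgeR that of Aqp4 was lost without replicates 2 or 3 of 4.5DDC (0.131 and 0.0998), 2 or 3 of 5.5DDC (0.0578 and 0.0571), or 1 or 2 of 6.5DDC (0.0957 and 0.0691). Aqp4 was also not called with voom (0.0586), on log2 FPKM (0.0564 and 0.0508) or with only the 6 libraries compared (0.0607), the highest of its alternatives being 0.131 and the lowest 0.00125.

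All 5 floor plate markers were tested, 3 were higher (Shh, Spon1 and Ntn1) and 0 lower, with a median of 0.79. DESeq2 called 3 of these markers higher, the replicate block 4, and replicates 2 and 3 only, chosen after seeing the data, 5. The summed level of all 5 was 905, 565 and 565 FPKM at 4.5DDC, 1660, 1100 and 1110 at 5.5DDC, and 1390, 1260 and 1390 at 6.5DDC, and Ntn1 was the most abundant. Spon1 kept its call in all 21 alternatives (log2 fold change 1.54, SE 0.259, adjusted p 0.00515). That of Shh was lost without replicate 2 (0.113) or 3 (0.0769) of 4.5DDC and without replicate 2 (0.114) or 3 (0.0599) of 6.5DDC, in a range from 0.00366 to 0.114. Ntn1 was no longer called without replicate 2 (0.108) or 3 (0.0871) of 4.5DDC, without replicate 2 (0.0501) or 3 (0.0539) of 5.5DDC, and without replicate 1 (0.0589), 2 (0.07) or 3 (0.0673) of 6.5DDC, nor with only the 6 libraries compared (0.0522), in a range from 0.00465 to 0.108. All 10 progenitor markers were tested, with 1 higher (Prom1), 2 lower (Sox3 and Nkx6-1) and a median of 0.020. DESeq2 called 1 higher and 4 lower, and at an unadjusted p under 0.05 there were 2 and 4. Replicates 2 and 3 only, chosen after seeing the data, gave 2 higher and 3 lower. With 1 library left out 0 to 3 were lower. The summed level of all 10 was 682, 994 and 1040 FPKM at 4.5DDC, 812, 1200 and 1250 at 5.5DDC, and 1250, 1520 and 1320 at 6.5DDC. Of this sum Fabp7, also among the glia markers, made up 142, 439 and 504 FPKM at 4.5DDC. It made up 252, 630 and 643 at 5.5DDC, and 655, 911 and 737 at 6.5DDC. Prom1 rose by 1.19 (SE 0.182, adjusted p 0.00363) in all 21 alternatives. Sox3 had a log2 fold change of −1.80 (adjusted p 0.0330), lost without replicate 2 of 4.5DDC (0.125) or replicates 1 or 2 of 6.5DDC (0.0666 and 0.118), with voom (0.0601) and on log2 FPKM (0.0565 and 0.05), in a range from 0.00181 to 0.125. Nkx6-1 had −1.14 (adjusted p 0.0220), lost without replicate 2 of 4.5DDC (0.0833) or of 6.5DDC (0.0802), in a range from 0.0013 to 0.0833.

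**Figure D5:**
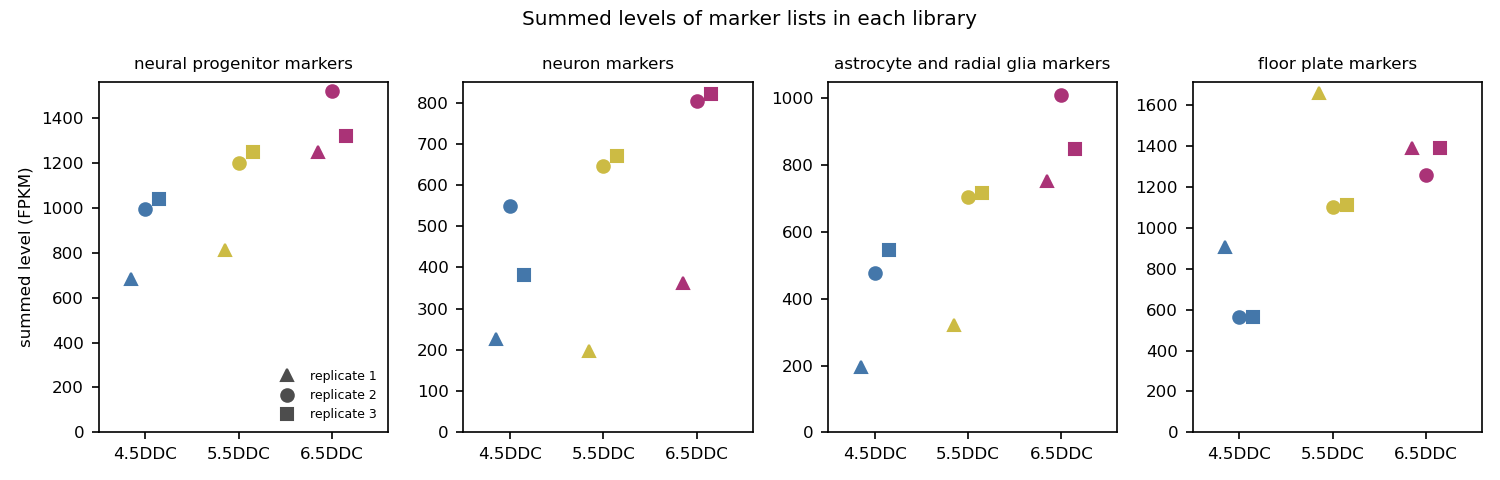
Summed level in FPKM (vertical axes, from 0) of 4 marker lists in each of the 9 libraries by time point, with symbols for the replicate number. Neuron markers were lowest in replicate 1 at each time (227, 198 and 363 FPKM), and floor plate markers were highest in replicate 1 of 4.5DDC (905) and 5.5DDC (1660).

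Of 7 endothelium markers 4 were tested, 1 was higher (Kdr, log2 fold change 1.76, adjusted p 0.0121) and 0 lower, with a median of 0.88. Their sum lay between 1.24 and 8.71 FPKM, Cdh5 was the most abundant, and Cldn5 was at 0 in all 9 libraries. Of 10 neural crest and mesenchyme markers 7 were tested, 1 was higher (Twist1) and 0 lower, with a median of 0.74 and a sum between 35.7 and 86.2 FPKM, Acta2 being the most abundant. Replicates 2 and 3 only gave 3 higher and 1 lower, and the replicate block 2 higher. The fold change of Twist1 was 0.74 (adjusted p 0.0276), a call lost without replicate 1 (0.077), 2 (0.0714) or 3 (0.0609) of 4.5DDC, replicate 2 of 5.5DDC (0.0544), or replicate 1 (0.0531) or 2 (0.0792) of 6.5DDC, with only the 6 libraries compared (0.0509) and with replicates 2 and 3 only (0.0686), in a range from 0.00344 to 0.0792. Sox10 and Foxd3, defining neural crest genes, did not pass the filter. Of 8 endoderm markers 4 were tested and 0 called, with 0 at an unadjusted p under 0.05 and 0 by DESeq2 or limma. The replicate block called 2 higher, and replicates 2 and 3 only 1. The median was 0.52, the sum of all 8 lay between 3.12 and 11.8 FPKM, and Cldn6 was the most abundant. The 2 tested pluripotency markers had 0 calls, with 0 at an unadjusted p under 0.05 and 0 by DESeq2 or limma, and a median of −0.26.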

How the data were processed

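The authors mapped single reads of polyA-selected TruSeq libraries to GRCm38; the submitters' processing notes name bcl2fastq 1.8.3, TopHat 2.0.4, HTSeq 0.6.1, Cufflinks 2.1.1 and limma. The annotation release and strand setting are not given in the sources used here. The deposited expected counts are reads per gene from htseq-count, not normalized. In them 98 symbols hold values that are not whole, 0 of them members. What made these values is not known, and they were rounded, since the test takes counts as whole. The deposited FPKM values are Cufflinks estimates scaled to transcript length and mapped reads, used as levels. The deposited log2 values are voom log2 CPM (counts scaled to library totals) with an offset of 0.5 counts, which differed from the same formula on the counts by at most 4.97e-14 and were used only in that check.

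Counts were tested with edgeR 4.0.16 in R 4.3.3 (TMM scaling with factors between 0.951 and 1.04, filterByExpr, quasi-likelihood test, 6 residual degrees of freedom, no block) on all 9 libraries, with Benjamini-Hochberg adjustment over 14742 genes and a threshold of 0.05. The SE is the absolute log2 fold change divided by the square root of the test's F. Alternatives were other scalings and filters, limma 3.58.1 (voom, or log2 FPKM plus 1 or 0.1), DESeq2 1.42.0, the replicate number as a block, only the 6 libraries compared, and each library left out, 19 in all. To these 2 were added after seeing the data, replicates 2 and 3 only and a block for replicate 1. Within-replicate values came from 1 fit with separate means for replicate 1 and for replicates 2 and 3. The fits were tested on simulated data.

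Same-numbered libraries deviated together from 4.5DDC to 5.5DDC (r across genes 0.743, 0.386 and 0.452) and from 5.5DDC to 6.5DDC (0.454, 0.367 and 0.197). Differently numbered libraries among replicates 2 and 3 did so as well, at 0.291 and 0.39 in the first interval and 0.225 and 0.405 in the second. These values set replicate 1 apart but do not tell replicates 2 and 3 from each other. No label says what a number shares, so a pairing by number is not shown, and the replicate block is given as an alternative only.

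Members and lists were chosen with earlier results of these data known. All members were named, the genes of the lists where called or most abundant, and the 3 genes most like each member. Lists were ligands, receptors, co-receptors, antagonists, chordin proteases, Smads, Smad regulators, Id genes, other targets, dorsal neural tube genes, E proteins, neural bHLH genes, Hes genes, and markers of progenitors, neurons, pluripotency, astrocytes and radial glia, endothelium, neural crest and mesenchyme, endoderm and floor plate. Tubb3 was not analysed here, and 1 gene each of the antagonist and floor plate lists is not reported here and was taken out of those lists after the data were seen. Gene positions came from GENCODE M21 and promoters from RefSeq, read with Python 3.11.15, pandas 2.3.3 and numpy 2.4.6; figures were drawn with matplotlib 3.10.9. Library totals ran from 11066572 to 25506192, and a floor of 3 counts corresponded to 0.118 to 0.271 CPM, which covers counting error only.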

Additional observations from a re-analysis of the deposited data

How the results depend on the processing

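None of 30 member changes was called by edgeR, and of 630 alternative values 24 passed the threshold; 9 changes turned sign in some alternative, and the cause was not tested. From 4.5DDC to 6.5DDC 0 members were called, against 4 with DESeq2, 1 without a filter on low counts, 1 with the replicate block (Id4), and 0 to 2 with 1 library left out. Alternatives chosen after seeing the data gave 4 with replicates 2 and 3 only and 4 with a block for replicate 1. From 4.5DDC to 5.5DDC DESeq2 and replicates 2 and 3 only gave 1 each, and from 5.5DDC to 6.5DDC replicates 2 and 3 only and the block for replicate 1 gave 1 each. For any difference the counts were 2 (DESeq2), 1 (replicate block), 0 to 1 (1 library left out), 3 (replicates 2 and 3 only) and 1 (block for replicate 1). The replicate block moved the count of all genes called from 2763 to 3418 over the span and from 1420 to 2180 for any difference, and changed no other member call. Over the span it also called 6 neural bHLH genes and 1 Hes gene lower, each 0 without it. It called 2 endoderm markers and 1 chordin protease higher, also 0 without it. Neuron markers called higher numbered 4, against 2, neural crest and mesenchyme markers 2, against 1, and progenitor markers 2, against 1. Astrocyte and radial glia markers called higher numbered 7, against 5, and floor plate markers 4, against 3. Over the span libraries of replicate 1 deviated together (r across genes 0.383), but those of replicates 2 and 3 did not (−0.0396 and −0.215). The numbers were therefore not taken as pairing 4.5DDC with 6.5DDC. All calls moved by more than 1.5 times with DESeq2 (11 to 495, 33 to 662, and 1420 to 2976 for any difference), with the block (11 to 212 and 33 to 195), with replicates 2 and 3 only (485, 728, 4586 and 3316 for any difference), with the block for replicate 1 (484, 634, 4382 and 3287), without a filter on low counts (25 and 78 in the intervals), with library totals (55 in the second), voom (21 in the second), log2 FPKM (7 in the first, 12 and 0 in the second), only the 6 libraries compared (1 and 0), and with 1 library left out (1 to 28 and 0 to 196 in the intervals, 1125 to 3132 over the span and 323 to 1831 for any difference). Turned log2 fold changes were, for Bmp4 over the span, −0.086 (voom), −0.24 and −0.43 (log2 FPKM plus 1 and 0.1), −0.066 (block for replicate 1) and −0.41 to 0.48 with 1 library left out. Id3 from 4.5DDC to 5.5DDC was −0.0094 (voom), −0.010 and −0.011 (log2 FPKM), −0.088 (replicate block), −0.55 (replicates 2 and 3 only), −0.11 (block for replicate 1) and −0.58 to 0.30 with 1 library left out. With replicates 2 and 3 only, Bmpr1b gave −0.0057, −0.067 and −0.072 in the first interval, the second and the span, Id2 −0.14 in the second and Id4 −0.0053 in the first. With 1 library left out Bmpr1b ran from −0.27 to 0.37, −0.44 to 0.64 and −0.34 to 0.66, Bmpr1a from −0.19 to 0.018, Smad6 from −0.37 to 0.049 and Id4 from −0.14 to 0.24 in the first interval, and Id2 from −0.11 to 0.19 in the second. Bmp4 and Smad6 rested on few reads, 10 to 93 and 15 to 54 per library.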
